A study of Homo sapiens with 61 samples.

Results

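The comparison described here sets human neurons without DLK against human neurons without LZK, both without the drug. It holds 8 of the 61 sequenced samples of the study, 4 labelled DLK KO untreated and 4 labelled LZK KO untreated, and all genes with enough counts in the table of the first experiment: 18235 of 58440. Genes that start on chromosome 2 between 120 and 240 Mb (546 tested) and genes on chromosome 5 (920 tested) are given apart from the remaining 16769, because the DLK KO libraries were low across long runs of neighbouring genes there. The 28 tested genes of chromosome 2 beyond 240 Mb, of which 26 were lower in DLK KO, are counted among the remaining genes. The parent of every line in this experiment was WTC11, a widely used line of induced pluripotent stem cells, and all lines carried a doxycycline-controlled cassette for NGN2, a transcription factor that turns stem cells into glutamatergic neurons. Besides DLK KO (MAP3K12 disrupted) and LZK KO (MAP3K13 disrupted) there were wild-type neurons (WT) and neurons without both kinases (double KO), each as 4 libraries. On day 14 the cells received vehicle, DMSO, for 16 hours, and in parallel samples 5 nM of vincristine, a drug that blocks microtubule assembly. The samples labelled untreated are therefore taken here as vehicle controls, though their labels do not name the vehicle.

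Each genotype is 1 line, and the labels do not say how many clones it came from. What belongs to the knockout and what belongs to the line cannot be told apart in any value below. The 4 replicates of a group are separate samples by their labels, and nothing says that they came from separate differentiations, so the p-values measure only the spread between these samples.

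DLK (dual leucine zipper kinase, gene MAP3K12) and LZK (leucine zipper-bearing kinase, gene MAP3K13) are close relatives among the mitogen-activated protein kinase kinase kinases. Both sit in axons, respond to damage of the cytoskeleton and pass the signal through MKK4 and MKK7 to the JNK kinases, which phosphorylate transcription factors such as JUN and ATF2. In neurons this route is known for driving both axon regrowth and cell death after injury, and the 2 kinases can bind each other and partly stand in for each other.

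Total counts were 8772268 to 10685498 in the DLK KO libraries and 8434666 to 10872978 in the LZK KO libraries. The first principal component of the 1000 most variable genes took 87.7% of the variance and separated the 2 genotypes. The second took 3.51%, and on it LZK KO replicate 2 lay apart at 17.6 against -9.04 to -3.71 for the other 3 LZK KO libraries. Mitochondrially encoded genes took 7.14% to 8.16% of counts in the DLK KO libraries and 5.01% to 6.86% in the LZK KO libraries. Levels below are CPM, counts scaled to a common library size with TMM factors, and differences are log2 values, DLK KO minus LZK KO, from edgeR's quasi-likelihood test with their standard error (SE). A gene was called different at a Benjamini-Hochberg adjusted p under 0.05 over all genes tested. CPM is not divided by gene length, so levels are compared between libraries and not between genes.

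The targeted genes followed the labels. MAP3K12 (chromosome 12, 53479669 to 53500063, GRCh38) stood at 23.7, 25.9, 25.8 and 29.7 CPM in the DLK KO libraries and at 74.4, 74.9, 82.1 and 73.0 CPM in the LZK KO libraries, a difference of -1.54 ± 0.11 (SE, adjusted p = 1.83e-14, edgeR). MAP3K13 (chromosome 3, 185282941 to 185489097) stood at 107, 109.9, 102 and 104 CPM in DLK KO and at 33.0, 34.2, 30.4 and 30.1 CPM in LZK KO, a difference of 1.73 ± 0.06 (adjusted p = 6.86e-23). The groups did not overlap for either gene, and the gene left intact averaged 76.1 CPM for MAP3K12 in LZK KO against 91.0 CPM in WT, and 106 CPM for MAP3K13 in DLK KO against 99.1 CPM in WT. Transcripts of a disrupted gene can remain, so these levels check the labels and do not measure protein. MAP3K12 overlaps PCBP2 and MAP3K13 overlaps TMEM41A on the opposite strand, and the strand setting of the counting is not given in the sources used here.

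Of the 16769 genes outside the 2 stretches, 6076 were called (36.2%), 3147 higher in DLK KO (18.8%) and 2929 lower (17.5%). The median difference of these genes was 0.01. A difference of at least 2-fold was called for 1888 of them (11.3%), 998 higher and 890 lower in DLK KO. The balance of directions moved with the scaling: 2939 were higher and 3132 lower with TMM factors from genes outside the stretches, and 4019 were higher and 2964 lower with offsets for GC content. These shares are the background against which each gene list below is read, and with more than 1 gene in 3 called, a list near them is no result about that list.

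Of 20 tested kinases, scaffolds and regulators of the JNK list outside the 2 stretches, 2 were higher and 6 were lower in DLK KO, with a median of -0.16. The share called, 40%, was near that of all genes, and with offsets for GC content 3 were higher and 9 were lower. MAPK8, which encodes JNK1, was at 288 ± 14.1 CPM (SD, n = 4) in DLK KO and 381 ± 48.1 CPM in LZK KO, a difference of -0.40 ± 0.08. MAP4K4, an upstream kinase of the JNK route, differed by -0.45 ± 0.07, and TNIK, its relative, by 0.45 ± 0.07. SPAG9 and MAPK8IP3, the JNK scaffolds JIP4 and JIP3, differed by -0.28 ± 0.05 and -0.44 ± 0.17. The values for MAP2K4 and MAP2K7, which encode MKK4 and MKK7, were -0.07 ± 0.08 and -0.19 ± 0.14 and did not pass the test, nor did those for MAPK9, on chromosome 5, and MAPK10 (JNK2 and JNK3) at 0.09 ± 0.05 and 0.08 ± 0.07.

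JUN, the main transcription factor target of JNK, was lower without DLK than without LZK. It stood at 48.2, 57.9, 60.5 and 54.4 CPM in DLK KO and at 117, 100.4, 133 and 114 CPM in LZK KO, a difference of -1.07 ± 0.14 (adjusted p = 3.22e-07, edgeR). The groups did not overlap. WT libraries held 140.2, 151, 138 and 131 CPM and double KO libraries 38.4, 41.9, 36.5 and 41.5 CPM, so that the order of means ran from WT at 140.0 over LZK KO at 116 and DLK KO at 55.3 to double KO at 39.6. Under vincristine JUN averaged 227 CPM in DLK KO and 280.2 CPM in LZK KO, and the difference, -0.30, did not pass the test (adjusted p = 0.0696). The change of the difference with the drug was not called for JUN either.

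JUN is itself switched on by JUN and ATF2 dimers through a pair of elements just before its start, which is why these are shown. They are stretches of the RefSeq promoter table (GRCh38.p14, minus strand), written 5′ to 3′ with the 8-base element in capitals:
proximal element, chr1:58784099-58784122: ccttggggTGACATCAtgggctat
distal element, chr1:58784218-58784241: gcggagcaTTACCTCAtcccgtga
The elements begin 67 and 186 bases before the RefSeq start of JUN, and the GENCODE 29 model of JUN reaches beyond both. Searched on both strands in the 250 bases before the start, TGACATCA was found in 834 of 35116 promoters of the table (2.37%) and TTACCTCA in 226 (0.644%), and 6 promoters (0.0171%) held both. Of 14 genes of the AP-1 and ATF list with an entry, JUN and ATF3 held the first and JUN held the second. A match is a string of letters and not a measured binding site.

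Other members of the AP-1 and ATF/CREB list moved in both directions. Of 13 members tested outside the 2 stretches, JUN included, 5 were lower and 2 were higher in DLK KO, with a median of -0.43. JUND, the family member with high resting expression, was at 91.6 ± 14.4 CPM in DLK KO and 165 ± 27.7 CPM in LZK KO (-0.85 ± 0.16), CREB5 at 11.0 and 21.1 CPM (-0.93 ± 0.13) and ATF3, a stress-induced factor, at 4.80 and 7.47 CPM (-0.63 ± 0.16). FOS and JUNB, early response genes, were higher in DLK KO by 0.79 ± 0.19 and 0.43 ± 0.16 from low levels of 2.52 and 5.46 CPM. ATF2 lies in the lowered stretch of chromosome 2 (175072250 to 175168382). It stood at 77.8, 67.8, 73.8 and 64.5 CPM in DLK KO and at 157, 204, 129 and 168 CPM in LZK KO (-1.21 ± 0.11), while WT and double KO means were 141 and 148 CPM. The groups did not overlap. The median of the genes in its 10 Mb window was -0.83, and the lower quartile of the stretch was -1.21.

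Several genes that damp or report MAP kinase activity were higher in DLK KO. Among 8 phosphatase genes tested outside the stretches, 4 were higher and 1 was lower. DUSP6, which acts on ERK, stood at 124, 131, 113 and 124 CPM in DLK KO and at 40.8, 38.5, 39.4 and 45.7 CPM in LZK KO (1.58 ± 0.07), with a WT mean of 42.0 CPM. DUSP5, another ERK phosphatase, stood at 14.5, 15.1, 14.8 and 13.1 CPM against 3.18, 2.29, 2.41 and 2.59 CPM (2.46 ± 0.15), with a WT mean of 8.63 CPM. Neither gene's groups overlapped. DUSP10, which acts on JNK and p38, differed by 0.48 ± 0.07, DUSP14 by 0.92 ± 0.18, and DUSP8, which also acts on JNK, by -0.82 ± 0.19. EGR1, an early gene induced by ERK, lies on chromosome 5 outside the lowered runs and was higher in DLK KO: 25.1, 29.9, 21.0 and 25.4 CPM against 6.60, 7.70, 6.01 and 5.30 CPM (1.99 ± 0.19). Of 9 early genes outside the stretches 0 were called higher and 3 were called lower, BTG2 (-0.73 ± 0.09), IER5 (-0.50 ± 0.11) and IER3 (-0.85 ± 0.20). The share called, 33.3%, was near that of all genes outside the stretches, 36.2%, so these counts are no result about the list.

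**Figure D1:**
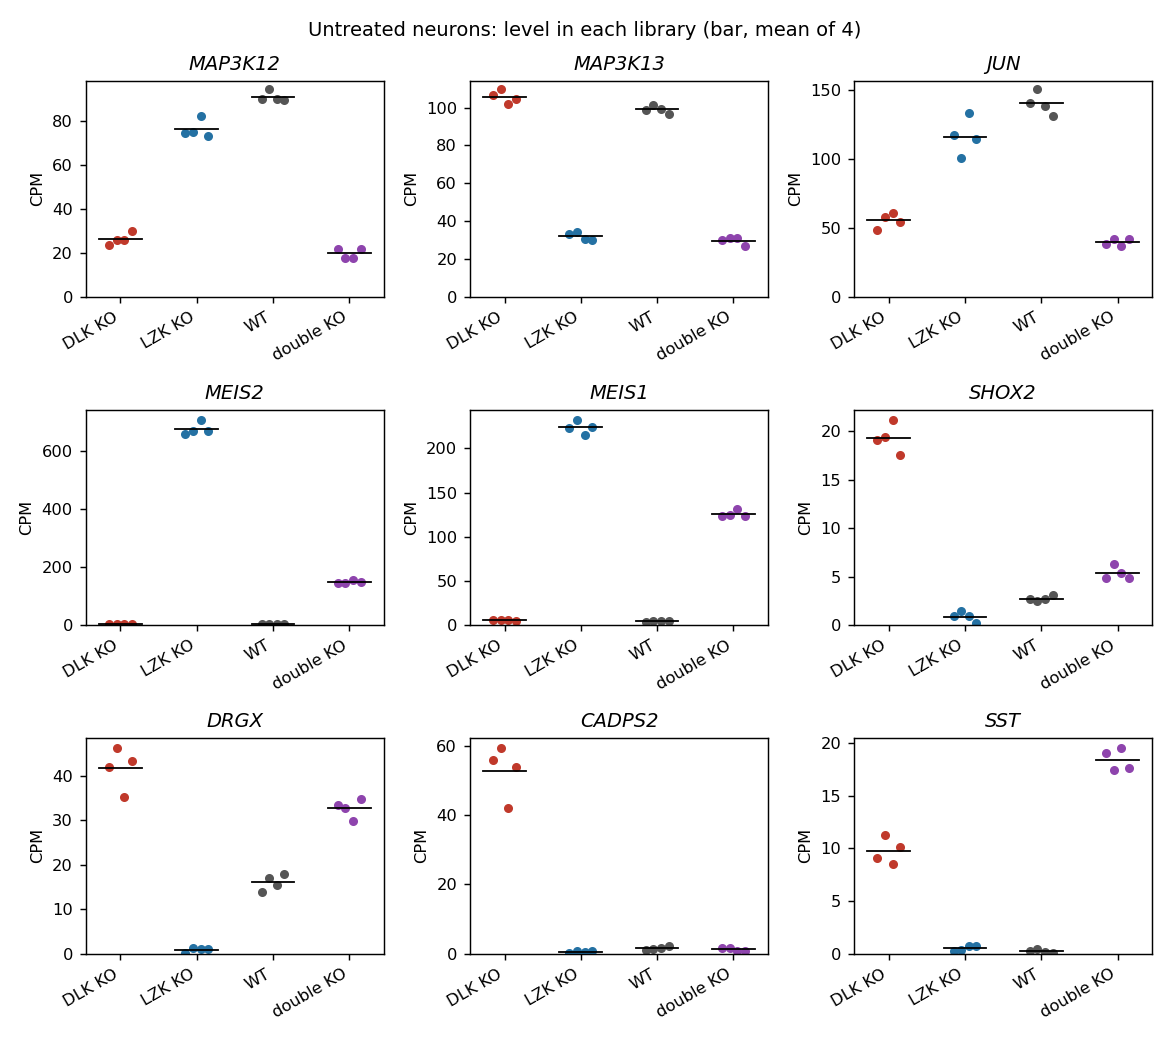
CPM (y axis, from 0) of 9 genes in the 4 libraries of each genotype without drug (points) with their mean (bar). JUN is lower in DLK KO and double KO than in LZK KO and WT, MEIS2 and MEIS1 are high in LZK KO and intermediate in double KO, and CADPS2 is high in DLK KO among the 4 genotypes shown.

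Many of the largest differences outside the 2 stretches were in genes that set the position and type of a neuron along the body axis. Higher in LZK KO were MEIS2 and MEIS1, homeobox partners of HOX and PBX proteins. MEIS2 (chromosome 15, 36889204 to 37101299) stood at 3.73, 2.39, 3.45 and 3.55 CPM in DLK KO and at 658, 669, 706 and 666 CPM in LZK KO, 206-fold apart (-7.68 ± 0.12, adjusted p = 4.2e-34, edgeR). MEIS1 stood at 6.22, 5.39, 5.92 and 5.06 CPM against 223, 233, 215 and 224 CPM (-5.30 ± 0.09). The DLK KO level was near that of WT for both (2.43 and 4.44 CPM), and double KO lay between at 148 and 126 CPM. AC018563.1, a gene next to MEIS2, had 0 counts in the 4 DLK KO libraries and 765 in the 4 LZK KO libraries, at least 287.8-fold higher in LZK KO when 3 counts over the group are taken as the floor.

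Few HOX genes had enough counts for a test. Of 30 HOX genes in the list 5 outside the stretches had enough counts to be tested, and 4 were lower and 1 was higher in DLK KO. A count of this kind rests on the genes that passed the filter through the group where they were high. HOXB3 stood at 2.01, 2.19, 1.59 and 2.69 CPM in DLK KO and at 40.7, 35.7, 43.8 and 39.2 CPM in LZK KO (-4.24 ± 0.14), and HOXB2 averaged 3.48 and 30.1 CPM (-3.11 ± 0.15). HOXA2 had 1 count in DLK KO and 53 in LZK KO, a ratio of 59.8 with a counting interval from 10.3 to 2407. These 3 genes pattern the hindbrain. HOXC4, a gene of the cervical cord, was higher in DLK KO at 0.903 CPM against 0.0463 CPM. HOXB2 and HOXB3 overlap HOXB-AS1 on the opposite strand, as MEIS2, SHOX2, SLC18A2, VIM and SYN3 overlap other genes, and without the strand setting such counts are uncertain.

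Other regulators higher in LZK KO were NR2F2, the nuclear receptor COUP-TFII, at 20.9, 19.6, 22.7 and 19.2 CPM against 1.63, 1.60, 1.06 and 1.51 CPM in DLK KO (-3.83 ± 0.16), SP8 (-4.52 ± 0.23), ZNF503 (-3.66 ± 0.17) and LHX5 (-2.31 ± 0.16). Among genes of signalling and secretion, TAC1, which encodes substance P, stood at 3.54, 2.59, 2.92 and 3.12 CPM in DLK KO and at 60.8, 64.5, 48.2 and 67.3 CPM in LZK KO (-4.30 ± 0.19), and its WT mean of 8.39 CPM was nearer to DLK KO. SORCS1, a sorting receptor, differed by -4.49 ± 0.11 with 5.90 against 133 CPM, ADCY8, a calcium-stimulated adenylyl cyclase, by -4.13 ± 0.14, and UNC13C, a vesicle priming protein, by -3.45 ± 0.09. No DLK KO library reached the level of any LZK KO library for these genes, which the naming rule required of all of them but LHX5, named as a list member.

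Higher in DLK KO were regulators of sensory and forebrain neurons. DRGX, a factor of nociceptive sensory neurons, stood at 42.0, 46.2, 35.3 and 43.2 CPM in DLK KO and at 0.227, 1.32, 0.925 and 1.06 CPM in LZK KO (5.55 ± 0.18, adjusted p = 3.92e-24, edgeR), with 16.0 CPM in WT and 32.7 CPM in double KO. SIX3, a factor of the anterior forebrain, averaged 112 ± 5.35 CPM against 5.54 ± 0.943 CPM (4.34 ± 0.13), and SHOX2 19.3 against 0.878 CPM (4.44 ± 0.22). ISL1, on chromosome 5 and shared by sensory and motor neurons, stood at 21.7, 21.7, 20.7 and 17.9 CPM in DLK KO and at 0.796, 0.361, 0.463 and 0.118 CPM in LZK KO (5.51 ± 0.19), and reached 66.3 CPM in double KO. The highest difference among the named genes was that of CADPS2, an activator of dense-core vesicle release, at 55.9, 59.3, 42.0 and 54.0 CPM against 0.227, 0.722, 0.555 and 0.824 CPM, 90.7-fold apart (6.49 ± 0.22).

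Counted over the list of sensory and hindbrain identity factors, 8 of 14 tested outside the stretches were higher in DLK KO and 5 were lower, so nearly every tested member differed but not in 1 direction. POU4F1, the sensory neuron factor BRN3A, was high in both lines and differed little (193 and 147 CPM, 0.39 ± 0.12), while its relative POU4F2 went the other way (68.9 and 149.7 CPM, -1.12 ± 0.10). Of 9 cortical excitatory factors outside the stretches 4 were higher and 3 were lower in DLK KO: NEUROD2 at 29.7 against 4.39 CPM (2.74 ± 0.18), BCL11B at 9.51 against 1.54 CPM (2.62 ± 0.20) and POU3F2 at 71.1 against 136 CPM (-0.93 ± 0.09) among them. The label calls these neurons cortical. The 6 markers of cortical excitatory neurons summed to 122 to 139 CPM in DLK KO, 119 to 143 CPM in LZK KO and 90.9 to 99.7 CPM in WT, with CUX2 at 53.3 and 70.5 CPM and SLC17A7 at 42.6 and 25.6 CPM in DLK KO and LZK KO. TBR1 was at 2.69 and 0.565 CPM, and EMX1, a factor of the dorsal cortex, had no count in LZK KO and at most 1.18 CPM in DLK KO.

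Markers of other cell types differed too. The 6 peripheral sensory neuron markers, which include POU4F1, DRGX and ISL1, summed to 250 to 290.0 CPM in DLK KO, 134 to 168 CPM in LZK KO and 442 to 478 CPM in WT, with 4 called higher and 1 lower in DLK KO. Summed levels of 6 neural progenitor markers were 202 to 269 CPM in DLK KO, 478 to 636 CPM in LZK KO and 731 to 773 CPM in WT, mostly NES, and 5 of the 6 were called lower in DLK KO, none higher. Of 6 cycling cell markers 5 were called lower in DLK KO (summed 32.9 to 37.6 CPM against 81.5 to 90.5 CPM, and 22.1 to 28.5 CPM in WT), with MKI67 at 8.88 and 33.1 CPM and TOP2A at 4.03 and 20.9 CPM. The 8 markers of astrocytes and oligodendrocytes summed to 23.8 to 26.7 CPM and 34.8 to 39.9 CPM, nearly all of it MBP. Called higher in DLK KO were 3, OLIG1, OLIG2 and S100B, with means of at most 1.19 CPM. Called lower were 2, MBP and PDGFRA. GFAP was at 0 in all 4 LZK KO libraries. Pluripotency markers summed to 11.2 to 14.6 CPM and 13.6 to 19.1 CPM. DPPA4 was called higher in DLK KO (4.22 against 1.08 CPM) and LIN28A lower (7.40 against 15.2 CPM). TDGF1 had no count, and NANOG had at most 0.0925 CPM in a library. The 7 mesenchymal markers summed to 3.76 to 5.39 CPM and 1.80 to 2.50 CPM, with 1 called higher, PDGFRB, and the 6 GABAergic neuron markers to 2.58 to 4.21 CPM and 4.83 to 5.83 CPM, with 1 called lower, DLX2. The 10 neuron markers summed to 14594 to 15979 CPM in DLK KO and 15376 to 16671 CPM in LZK KO, ranges that overlap, but 5 of the 10 were called lower in DLK KO (MAP2, STMN2, DCX, TUBB3 and RBFOX3) and 1 higher (NEFM, at 8424 against 6347 CPM). The part of progenitor, cycling and sensory cells in the differences of patterning genes was not tested. In bulk RNA, fewer cells of a type and less RNA per cell cannot be told apart.

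Genes of the microtubule cytoskeleton were lower in DLK KO. Of 23 stathmins, tubulins and microtubule-associated proteins tested outside the 2 stretches 17 were lower and 1 was higher, with a median of -0.39 against 0.01 over all genes outside the stretches. TUBB2B, a tubulin of young neurons, stood at 522, 487, 487 and 505 CPM in DLK KO and at 828, 736, 885 and 837 CPM in LZK KO (-0.72 ± 0.06, adjusted p = 6.77e-12, edgeR). STMN2, a growth cone stathmin used as a marker of axon health, averaged 1021 ± 70.6 CPM against 1925 ± 266 CPM (-0.91 ± 0.12), DCX 1412 against 1925 CPM (-0.45 ± 0.06) and DPYSL5 331 against 568 CPM (-0.78 ± 0.12). MAP7, which recruits kinesin, was the exception (18.6 against 5.97 CPM, 1.66 ± 0.16). Of the 4 members in the stretches 3 were lower: MAP1B at 5091 against 14630.3 CPM (-1.52 ± 0.06), DPYSL3 at 556 against 1485 CPM (-1.42 ± 0.05) and MAP2 at 1226 against 2286 CPM (-0.90 ± 0.05). Against WT, which both comparisons share, the median of the 23 genes was -0.46 for DLK KO and -0.07 for LZK KO.

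Genes tied to axon growth were lower in DLK KO more often than higher, 6 of 12 against 3 outside the stretches. SOX11, a regeneration factor, was at 394 and 734 CPM (-0.90 ± 0.10), MARCKS at 463 and 713 CPM (-0.62 ± 0.08) and GAP43 at 664 and 777 CPM (-0.23 ± 0.07), while STAT3 was at 80.8 and 54.6 CPM (0.56 ± 0.09). In the stretches, ECEL1, an injury-induced neuronal peptidase, stood at 1.91, 1.70, 1.94 and 1.61 CPM against 44.6, 34.4, 50.0 and 43.8 CPM (-4.58 ± 0.17), BASP1 at 351 against 893 CPM and KLF7 at 123 against 308 CPM. Intermediate filaments were split: NEFM was higher (0.41 ± 0.09) and INA lower (1118 against 1659 CPM, -0.57 ± 0.06), VIM was at 33.3 against 91.1 CPM (-1.45 ± 0.07) and NES at 226 against 516 CPM (-1.19 ± 0.14), both also markers of progenitors, whose list was lower in DLK KO as given above.

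Guidance genes differed in both directions. Of 43 ligands and receptors outside the stretches 22 were lower and 12 higher in DLK KO, with a median of -0.45. SEMA3E, a repellent ligand, stood at 111, 102, 97.2 and 99.0 CPM in DLK KO and at 6.48, 9.86, 5.83 and 6.36 CPM in LZK KO (3.85 ± 0.11), and NRP1, a semaphorin receptor, at 188, 184, 161 and 172 CPM against 31.4, 29.7, 34.9 and 27.7 CPM (2.51 ± 0.08). In the other direction went the receptors PLXNA2 (75.2 against 207 CPM, -1.46 ± 0.12), EPHB2 (129 against 237 CPM, -0.88 ± 0.13) and ROBO2 (493 against 751 CPM, -0.61 ± 0.05), and the ligands EFNB2 (85.6 against 196 CPM, -1.19 ± 0.09) and NTN1 (1.83 against 8.38 CPM, -2.18 ± 0.21). Of 18 classical cadherins and non-clustered protocadherins outside the stretches 8 were higher and 3 lower in DLK KO, with PCDH10 at 222 against 68.3 CPM (1.70 ± 0.07), PCDH17 at 104 against 40.6 CPM (1.35 ± 0.07) and PCDH9 at 726 against 1237 CPM (-0.77 ± 0.08). Among neurotrophic receptors, NTRK2, the receptor of BDNF, stood at 238, 255, 209.8 and 245 CPM in DLK KO and at 66.9, 72.2, 61.2 and 60.7 CPM in LZK KO (1.86 ± 0.06). NTRK3, the receptor of NT-3, went the other way at 177, 189.9, 162 and 168 CPM against 340.0, 375, 318 and 329.6 CPM (-0.97 ± 0.08), as did NGFR (-1.09 ± 0.12). RET was higher in DLK KO at 56.1 against 20.4 CPM, and so was GFRA1, its partner, at 145 against 75.5 CPM.

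Transmitter receptors were higher in DLK KO in 19 of 38 genes outside the stretches and lower in 7, with a median of 0.40. CHRNA3, a subunit of the ganglionic nicotinic receptor, stood at 177, 172, 127 and 154 CPM in DLK KO and at 18.2, 18.3, 16.5 and 18.1 CPM in LZK KO (3.15 ± 0.15), and its partner CHRNB4, a neighbour on chromosome 15, averaged 75.7 against 12.5 CPM (2.61 ± 0.13). CHRNA3 overlaps CHRNA5, the remaining gene of that cluster, which differed by 0.34 ± 0.10. Of glutamate receptors, GRIN2B (449 against 192 CPM, 1.23 ± 0.09), GRIN3A (76.1 against 32.6 CPM), GRIA2 (178 against 92.8 CPM) and GRIK4 (11.6 against 1.71 CPM) were higher in DLK KO, and GRM5 (3.55 against 10.1 CPM) and GRIK3 (53.8 against 91.7 CPM) were lower. GRIA1 on chromosome 5 was also higher (38.8 against 6.11 CPM, 2.66 ± 0.12). Against WT the median of the 38 genes was 0.00 for DLK KO and -0.50 for LZK KO.

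Neuropeptide genes were more often higher than lower in DLK KO. Of 16 peptide and granin genes outside the stretches 8 were higher and 2 lower in DLK KO. NTS, neurotensin, stood at 27.0, 24.2, 24.0 and 23.3 CPM against 0.682, 0.962, 0.740 and 2.12 CPM (4.47 ± 0.28), SST, somatostatin, at 9.09, 11.3, 8.49 and 10.1 CPM against 0.227, 0.361, 0.740 and 0.706 CPM (4.19 ± 0.23), and CHGA, chromogranin A, at 246 against 93.3 CPM on average (1.40 ± 0.13). Of 11 transmitter identity genes outside the stretches 5 were higher and 2 lower, with a median of 0.18, and over all 13 tested the median was -0.07. SLC18A2, the vesicular monoamine transporter, stood at 11.4, 13.6, 12.2 and 13.2 CPM in DLK KO and at no more than 0.241 CPM in an LZK KO library (5.95 ± 0.25). DBH, which makes noradrenaline from dopamine, went the other way at 0.119 against 1.66 CPM (-3.64 ± 0.48). The cholinergic transporters SLC18A3 (55.6 against 24.8 CPM, 1.16 ± 0.14) and SLC5A7 (22.2 against 10.7 CPM, 1.07 ± 0.13) were higher in DLK KO. Of the vesicular glutamate transporters, SLC17A6 was at 171 and 151 CPM and did not pass the test (0.18 ± 0.08), and SLC17A7 was higher in DLK KO at 42.6 against 25.6 CPM (0.73 ± 0.10).

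Voltage-gated channels differed in both directions, 13 higher and 17 lower in DLK KO among 43 outside the stretches. The potassium channel genes KCNQ3 (28.0 against 129.6 CPM, -2.21 ± 0.09) and KCNH8 (21.7 against 64.3 CPM, -1.56 ± 0.08) were lower. The calcium channel genes CACNA1D (69.8 against 21.3 CPM, 1.71 ± 0.12) and CACNA2D1 (519 against 349 CPM, 0.57 ± 0.05) and the sodium channel gene SCN8A (149.7 against 101 CPM, 0.57 ± 0.06) were higher. In the chromosome 2 stretch, the sodium channel genes SCN2A and SCN3A were lower by nearly the amount of their neighbours, -0.90 ± 0.08 and -0.98 ± 0.08. Of 24 synaptic vesicle genes 6 were higher and 6 lower, with a median of 0.02: SYT1 was at 837 against 479.8 CPM (0.80 ± 0.05) and SYN3 at 12.6 against 50.2 CPM.

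**Figure D2:**
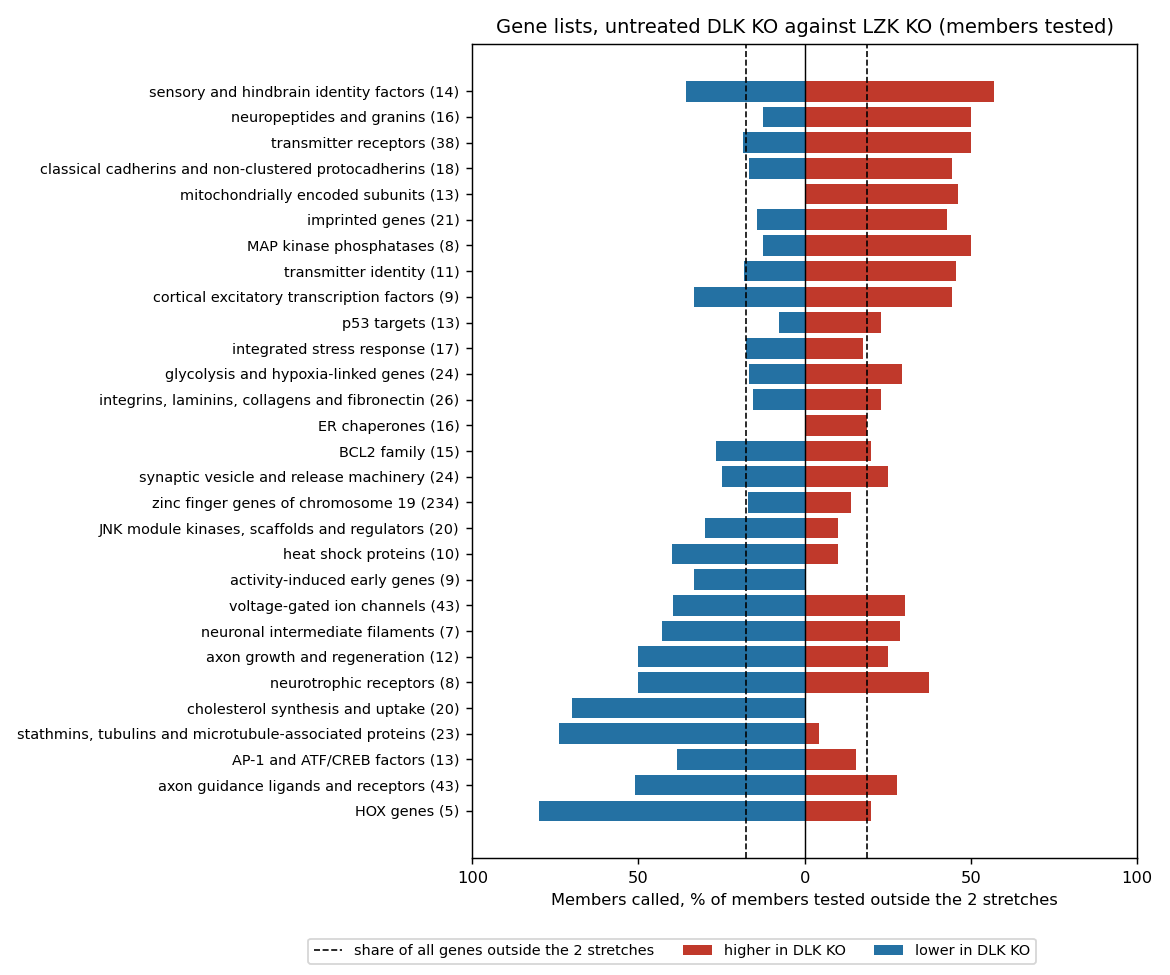
Share of tested members outside the 2 stretches (x axis, %) called higher (right) and lower (left) in DLK KO for each gene list (y axis, members tested in brackets), ordered by median difference. The dashed lines are the shares over all 16769 genes outside the stretches, 18.8% and 17.5%.

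Genes of cholesterol synthesis and uptake were lower in DLK KO in 14 of 20 members outside the stretches and higher in none, with a median of -0.33. SQLE, the squalene epoxidase, stood at 189, 169, 205 and 210.4 CPM in DLK KO and at 284, 259, 267 and 271 CPM in LZK KO (-0.48 ± 0.07, adjusted p = 1.42e-06, edgeR), and the groups did not overlap. SREBF2, the transcription factor that controls the pathway, was at 276 against 379 CPM (-0.46 ± 0.11) and MVD at 106 against 163 CPM (-0.62 ± 0.12). All 3 members on chromosome 5 were lower too, among them STARD4, a sterol carrier, at 38.8, 32.6, 51.2 and 48.1 CPM against 75.5, 77.1, 53.6 and 74.1 CPM (-0.71 ± 0.12), with LZK KO replicate 3 near the DLK KO libraries. Both lines were below WT, which the comparisons share, with medians of the 20 genes of -0.73 for DLK KO and -0.49 for LZK KO. In the vincristine libraries, where 17.8% of all genes outside the stretches were lower and 19.6% higher in DLK KO, 2 of the 20 were lower and 3 were higher, with a median of -0.03. The change with the drug was itself called for 1 member, DHCR7 (-0.30 without and 0.32 with vincristine, adjusted p of the difference = 0.0261).

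**Figure D3:**
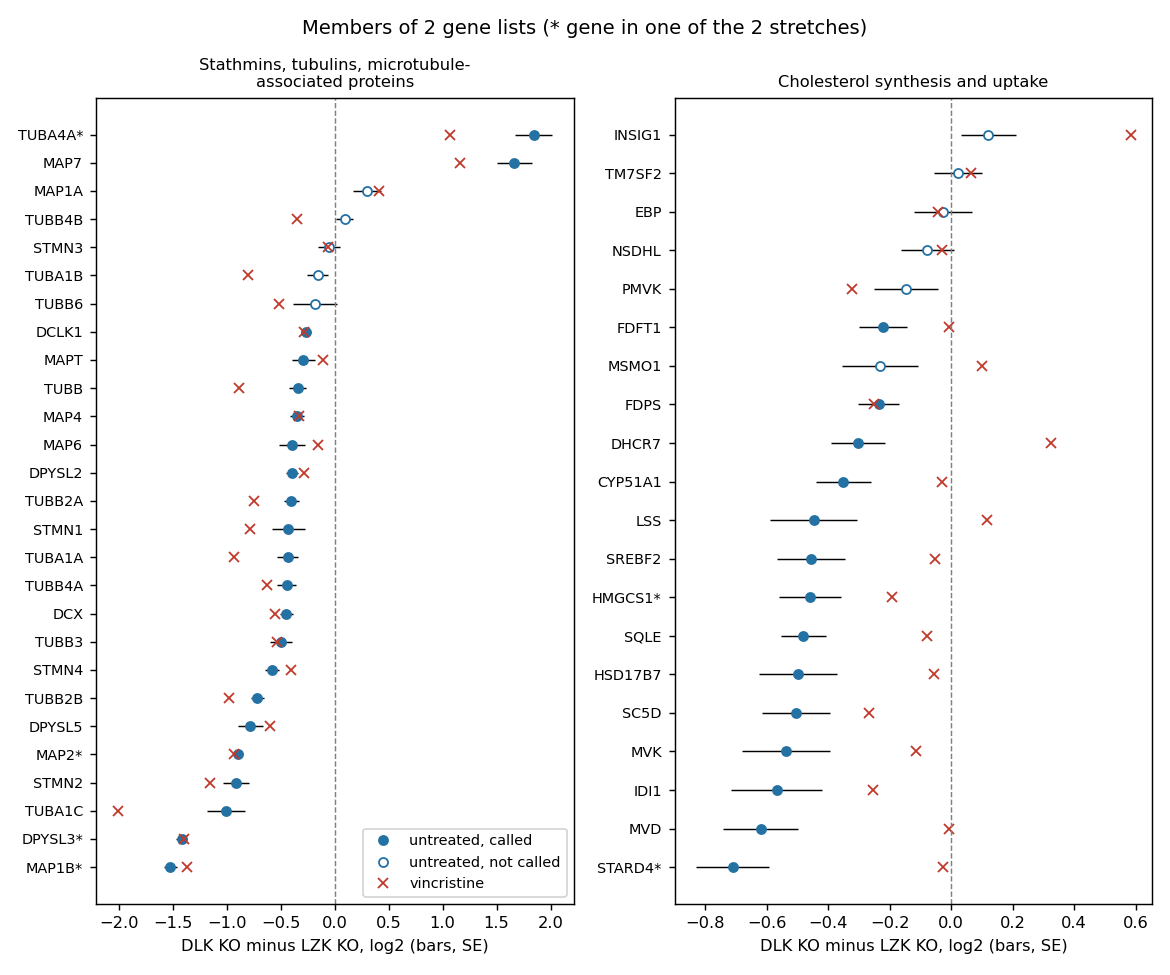
Difference of members of the microtubule list (left) and the cholesterol list (right), DLK KO minus LZK KO on the log2 scale (x axis), without drug (circles with SE, filled where called) and under vincristine (crosses). Most microtubule genes sit below 0 in both sets, while most cholesterol genes sit below 0 without drug and nearer 0 under vincristine.

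Genes of glycolysis moved in both directions, and those of the integrated stress response were called at about the share of all genes. Of 24 glycolysis and hypoxia-linked genes outside the stretches 7 were higher and 4 lower in DLK KO, with ENO2 at 492 against 295 CPM (0.74 ± 0.05), PFKP at 48.0 against 25.3 CPM (0.92 ± 0.10) and LDHA at 45.1 against 88.5 CPM (-0.97 ± 0.14). Of 17 genes of the integrated stress response 3 were higher and 3 lower. The share called, 35.3%, was that of all genes outside the stretches, 36.2%, so these counts are no result about the list. ATF4 itself was at 193 against 185 CPM and did not pass (0.06 ± 0.09). PPP1R15A, which ends the response, was at 44.9 against 89.5 CPM and VLDLR at 35.3 against 87.3 CPM (-1.31 ± 0.07). Of 16 ER chaperones none was lower and 3 were higher: HSPA5 (0.35 ± 0.06), DNAJC3 (0.40 ± 0.09) and SEL1L (0.15 ± 0.06). The share called higher was that of all genes outside the stretches, 18.8%, while 17.5% of all those genes were lower. For SEL1L, 8 of 18 other settings made no call. Of 13 mitochondrially encoded genes 6 were higher in DLK KO and none lower. MT-ND5 stood at 5717, 5633, 6025 and 5294 CPM against 3508, 5129.7, 3002 and 3052 CPM, and LZK KO replicate 2, the library that lay apart on the second principal component, was the highest of its group. Without that library the difference of MT-ND5 was 0.85, against 0.63 ± 0.12 with it, and over all other settings 3 to 7 of the 13 genes were called.

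Among genes of cell death, BCL2, which blocks apoptosis, was lower in DLK KO at 11.7, 14.0, 13.5 and 14.2 CPM against 46.4, 47.4, 53.1 and 49.1 CPM (-1.88 ± 0.09), and the DLK KO level was the one near WT (11.8 CPM). HRK, a death gene induced through JNK, was lower in DLK KO at 7.89 against 14.6 CPM (-0.89 ± 0.15), and both lines were below WT at 43.4 CPM and above double KO at 3.42 CPM. BCL2L11, which encodes BIM, was higher in DLK KO at 12.1 against 7.98 CPM (0.59 ± 0.14). Over the BCL2 family 3 of 15 were higher and 4 lower, with a median of 0.03. The lower ones include BOK (-1.30 ± 0.18), which lies on chromosome 2 beyond 240 Mb, where 26 of 28 genes were lower. Of 13 p53 targets 3 were higher and 1 lower. The share called, 30.8%, was near that of all genes outside the stretches, 36.2%, so these counts are no result about the list. CDKN1A at 2.55 against 0.498 CPM (2.25 ± 0.41) and TP53I3 at 4.94 against 12.8 CPM (-1.39 ± 0.14) had the largest differences.

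Imprinted genes were higher in DLK KO in 9 of 21 outside the stretches and lower in 3, with a median of 0.25. NNAT, neuronatin, stood at 805, 769, 636 and 683 CPM against 262, 244, 253 and 264 CPM and PEG10 at 1502 ± 164 CPM against 744 ± 10.1 CPM (1.01 ± 0.06). PLAGL1, which encodes a transcription factor, went the other way at 3.76 against 26.5 CPM (-2.82 ± 0.13). NNAT lies in an intron of BLCAP, which was also higher (0.86 ± 0.06), and their reads cannot be told apart here without the strand setting. Zinc finger genes of chromosome 19, mostly repressors of transcription, were called in 31.2% of 234 (33 higher, 40 lower), with a median of -0.04. ZNF506, named for the smallest p of the list, stood at 41.3 CPM in DLK KO, 8.58 CPM in LZK KO, 39.3 CPM in WT and 0.132 CPM in double KO.

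In the chromosome 2 stretch 402 of 546 genes were called (73.6%), 376 lower (68.9%) and 26 higher (4.76%) in DLK KO, with a median of -0.90. Per library, the median deviation from WT over 383 genes was -0.88 to -0.81 in DLK KO, 0.00 to 0.13 in LZK KO and 0.02 to 0.07 in double KO, so the lowered values were in the DLK KO libraries. In windows of 10 Mb the median was 0.10 from 120 to 130 Mb, -0.86 from 130 to 140 Mb and between -1.12 and -0.75 from there to 240 Mb, and the 28 genes beyond 240 Mb had a median of -0.97. EPHA4 (221418027 to 221574202), a receptor of ephrins, was far below its neighbours at 27.1, 28.2, 23.4 and 24.0 CPM against 350.5, 355, 335 and 365 CPM (-3.77 ± 0.07), with 206 CPM in WT. IGFBP5 (3.20 ± 0.26), PDE1A (1.99 ± 0.17) and TUBA4A (1.84 ± 0.17) were higher in DLK KO within lowered windows. GLI2 (2.03 ± 0.18) and GYPC (2.00 ± 0.11) were higher too, but lie between 120 and 130 Mb, where the window median was not lowered. No measure of DNA was used here.

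On chromosome 5, 536 of 920 genes were called (58.3%), 413 lower (44.9%) and 123 higher (13.4%), with a median of -0.33. The lowered genes came in runs: window medians were -0.97 and -0.99 from 0 to 20 Mb, -1.09 to -0.86 from 50 to 90 Mb and -0.74 from 140 to 150 Mb, while between 90 and 140 Mb they lay between -0.43 and 0.01 and from 150 Mb on between -0.27 and 0.09. MCCC2, an enzyme of leucine breakdown, was lowest at 1.15 against 15.6 CPM (-3.75 ± 0.16), with WT at 22.0 CPM. The clustered protocadherins, adhesion proteins by which neurites recognise their own kind, lie in one such run, and 37 of 51 tested were lower and 2 higher in DLK KO, with a median of -0.97. PCDHB2 stood at 31.9, 35.6, 31.4 and 31.4 CPM against 122, 117, 121 and 112 CPM (-1.86 ± 0.07). The alpha and gamma genes share exons at their ends, so counts of single members such as PCDHGC3 (-2.65 ± 0.17) are uncertain. Of the genes higher in DLK KO described here, ISL1 lies in a lowered run. EGR1, GRIA1 and the cadherin genes CDH9 (15.9 against 1.24 CPM, 3.68 ± 0.17) and CDH6 (41.6 against 8.35 CPM, 2.31 ± 0.09) lie in windows with medians from -0.03 to 0.34.

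**Figure D4:**
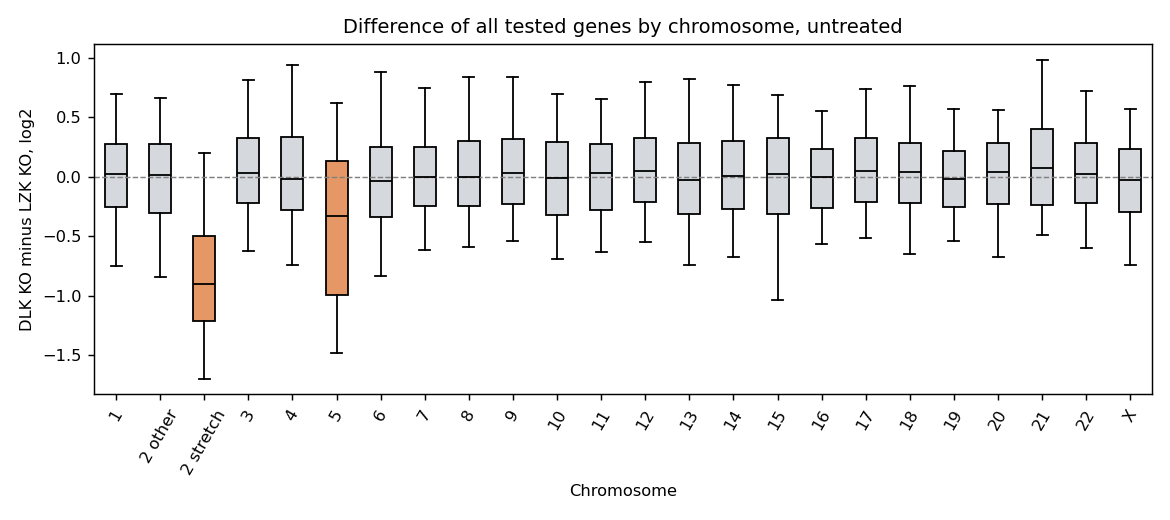
Distribution of the difference, DLK KO minus LZK KO on the log2 scale (y axis), over the tested genes of each chromosome (x axis), with chromosome 2 divided into the stretch and the other genes. Boxes span the quartiles, lines are medians and whiskers reach the 10th and 90th percentiles. The stretch of chromosome 2 (-0.90) and chromosome 5 (-0.33) lie below the other medians, which for whole chromosomes other than 2 and 5 run from -0.04 to 0.07.

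The same lines treated with vincristine gave 8 further libraries, which share none with the comparison above but come from the same lines. There 7210 of 18235 genes were called (39.5%, with 18.8% higher and 20.8% lower in DLK KO), against 7014 without drug (38.5%, with 18.1% higher and 20.4% lower). Called in both with the same sign were 5175 genes, 73.8% of the calls without drug and 71.8% of those with drug, and 7 were called with opposite signs. Across the 18235 genes, which are not independent replicates, the 2 differences correlated with a Pearson r of 0.872 and a Spearman rho of 0.779. A test of whether the difference changed with the drug called 12 genes (0.0658%), among them ADCY8 (-4.13 without and -2.92 with drug), EGR1 (1.99 and 0.58), PRUNE2 (-0.04 and 0.70), HTR5A (0.06 and 1.38), TUBB (-0.34 and -0.88) and CDH13 (1.81 and 1.18). For EGR1, levels under vincristine rose to 43.7 CPM in DLK KO and 29.2 CPM in LZK KO from 25.4 and 6.40 CPM.

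**Figure D5:**
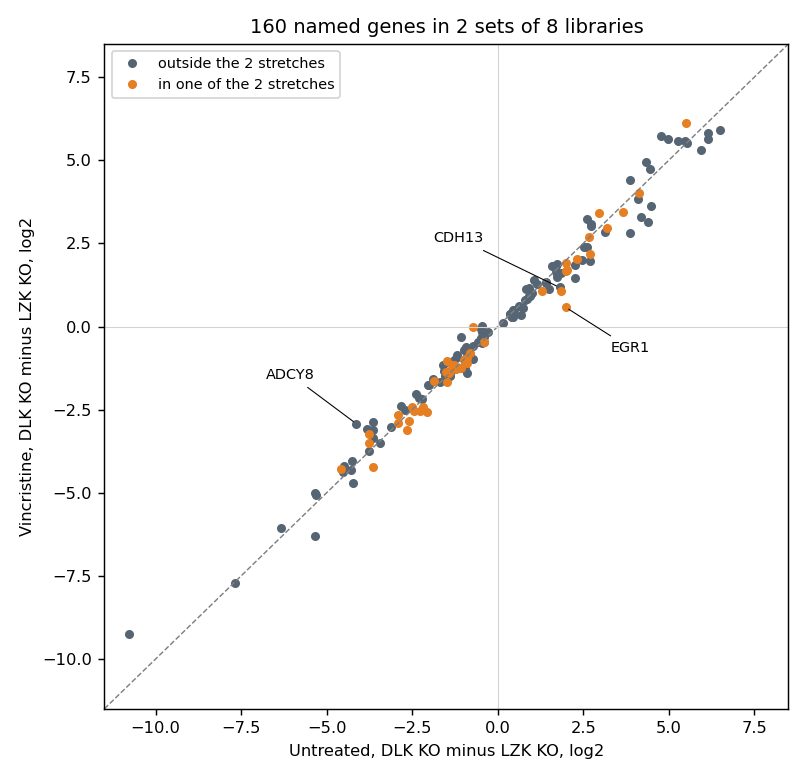
Difference between DLK KO and LZK KO of the 160 genes named by rule, without drug (x axis) and under vincristine (y axis), both on the log2 scale, with the line of equality dashed. Genes in the 2 stretches are orange, and 3 genes whose difference changed with the drug are named. Most points lie near the line, with EGR1 (1.99 without and 0.58 with drug) below it.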

How the data were processed

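RNA was measured by poly(A)-selected, stranded, paired-read sequencing, per the labels' protocols. The authors deposited raw counts per gene. Per the submitters' processing notes, cutadapt 3.4, STAR and featureCounts of Subread 2.0.1 were used with GRCh38. The strand setting and the handling of duplicate reads are not given in the sources used here. Of 58440 gene identifiers, 58320 had a symbol, and 56992 matched GENCODE 29 in version and start.

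The 32 libraries of the first experiment, 8 groups of 4, entered 1 fit with edgeR 4.0.16 in R 4.3.3: filterByExpr, TMM factors, robust quasi-likelihood, and a contrast of the 2 groups. A gene was called at a Benjamini-Hochberg adjusted p under 0.05. With 8434666 to 10872978 counts per library, low genes have wide errors, and floors and intervals cover counting error only. Replicates of a group differed beyond sampling noise (chi-square per gene from 2.76 upwards), so none was a copy. On simulated counts 92.5% of 200 genes changed 2-fold were called, with 8 false calls among 17657 genes. The simulated spread was set by a formula and not estimated from these libraries, and far fewer genes changed than were called here. These figures check the code and are not error rates of this comparison.

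Genes were named by rule: both targets and ATF2, the 15 highest and 15 lowest called genes outside the stretches with a mean of at least 1 on the log2 CPM scale, the 5 highest and 5 lowest of each stretch, and up to 4 called members with the smallest p of each of 30 lists, 160 in all. Outside the lists the libraries of the 2 groups also had to be free of overlap. Other members are given as list members. The comparison, its members and the lists were chosen with earlier results of these data known. Alternatives were DESeq2 1.42.0, limma 3.58.1 (voom with quality weights), other scaling and filters, the replicate block, fewer libraries, each library left out, and, chosen after seeing the data, offsets for GC content. Genes linked to the Y chromosome and a few other genes are not reported here.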

Additional observations from a re-analysis of the deposited data

Results flagged for a closer look

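In 19 of 310 groups of 4 libraries (2 groups for each of 155 named genes) 1 library lay far from the other 3, and chance gives about 1 in 20. Values are CPM, with the range of the other 3 libraries behind each. In LZK KO replicate 2, DPYSL3 was at 1423 (1501 to 1509.7), INA at 1448 (1713 to 1753), POU3F2 at 109.6 (143 to 146) and PFKP at 21.1 (26.2 to 27.1), all low. This is the library that lay apart on the second principal component. In LZK KO replicate 1 DOCK10 was high at 8.98 (6.74 to 6.95). In LZK KO replicate 3 CHRNA3 was low at 16.5 (18.1 to 18.3), STARD4 low at 53.6 (74.1 to 77.1) and GFRA1 high at 86.0 (71.2 to 73.1). In LZK KO replicate 4 TRPM3 was low at 0.235 (0.910 to 1.11) and LAMA1 low at 20.2 (23.5 to 24.1).

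In DLK KO replicate 1 NR3C1 was high at 13.3 (11.5 to 11.8), and in replicate 2 PCDHB2 was high at 35.6 (31.4 to 31.9). In DLK KO replicate 3 FLRT3 was high at 4.77 (3.76 to 3.89), MT-CO1 high at 7646 (6633 to 6675), MT-ND4 high at 7009 (6137 to 6259) and SYN2 low at 9.81 (13.0 to 13.1). In DLK KO replicate 4 IER5 was high at 17.3 (15.3 to 15.4), GRIK4 high at 14.3 (10.5 to 10.9), and HOXA2 was at 0.108 where the other 3 libraries had no count.

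For 3 named genes the difference between the lines changed with vincristine in edgeR's test of that change, in log2 units. It changed by -1.21 for ADCY8 (adjusted p = 0.00744), by 1.41 for EGR1 (adjusted p = 0.0182) and by 0.63 for CDH13 (adjusted p = 0.0423), each without drug minus with drug. ADCY8 stayed lower, and EGR1 and CDH13 stayed higher, in DLK KO under the drug.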

How the results depend on the processing

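The count of genes called without drug, 7014, was 7076 with DESeq2, 7922 with limma voom, 7008 with RLE factors, 7017 with TMM factors from genes outside the stretches, 6368 with no filter, 6636 with a filter at a mean of 1 CPM, 6393 with only the 8 libraries compared, 7620 with only the vehicle libraries and 7964 with GC content offsets. It ran from 6324 to 6831 with 1 library left out. Outside the stretches that range was 5424 to 5924, in the chromosome 2 stretch 387 to 398, on chromosome 5 496 to 525, and under vincristine 6232 to 7627. The differences of MAP3K12 and MAP3K13 ran from -1.58 to -1.47 and from 1.72 to 1.78.

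The median of the chromosome 2 stretch was -0.16 with no filter and -0.84 with GC content offsets, and -0.90 to -0.86 with 1 library left out. The median of chromosome 5 was 0.00 with no filter, -0.29 with a filter at a mean of 1 CPM, -0.29 with only the 8 libraries compared, -0.26 with GC content offsets, and -0.32 to -0.28 with 1 library left out. With no filter, genes with hardly a count enter both medians. Among the named genes 9 results fell short of the threshold under an alternative, 8 of them for SEL1L and 1 for MT-ND4, which without LZK KO replicate 3 differed by 0.37 (adjusted p = 0.0522, edgeR). Of the list medians outside the stretches, that of the zinc finger genes not recomputed, only that of the extracellular matrix list changed sign (0.06, and -0.05 without LZK KO replicate 1). Of counts of called members above 2, those that moved over 1.5 times were heat shock genes lower (1 to 4 over the other settings), HOX genes lower (2 to 4), intermediate filaments lower (3 to 5), mitochondrially encoded genes higher (3 to 7), and ER chaperones (2 to 5), p53 targets (3 to 5) and stress response genes (3 to 5) higher.

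Same-numbered libraries of the 2 groups did not visibly deviate together, with correlations of -0.365, 0.022, -0.0675 and -0.214. Differently numbered pairs ran from -0.579 to 0.584, so these values cannot decide whether the number marks a pairing. The replicate block called 6803 genes. Depth limits genes of few counts, such as HOXA2.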

Other observations

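Of 26 genes of the extracellular matrix and integrin list outside the stretches 6 were higher and 4 lower in DLK KO. The share called, 38.5%, was near that of all genes outside the stretches, 36.2%, so these counts are no result about the list. The largest difference was in a basement membrane gene. LAMA1, a laminin chain of early basement membranes, stood at 3.44, 3.99, 3.27 and 3.12 CPM in DLK KO and at 23.5, 23.7, 24.1 and 20.2 CPM in LZK KO (-2.72 ± 0.16), with a WT mean of 2.90 CPM. The collagen IV gene COL4A2 was at 23.1 against 53.9 CPM (-1.23 ± 0.16), with 12.8 CPM in WT. LAMC1, the common laminin gamma chain, was higher in DLK KO at 59.0 against 36.5 CPM.

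Heat shock genes were called lower in DLK KO in 4 of 10 outside the stretches and higher in 1, and over the other settings 1 to 4 were called lower. BAG3, a chaperone partner of autophagy, was the higher one at 18.9, 19.2, 20.2 and 24.8 CPM against 7.28, 7.82, 8.60 and 7.53 CPM (1.40 ± 0.14), near its WT mean of 18.7 CPM. HSPA8 was at 1780.2 against 2258 CPM (-0.34 ± 0.12). HSPD1 and HSPE1, a divergent pair encoding the mitochondrial chaperonin, lie in the chromosome 2 stretch and differed by -0.99 ± 0.08 and -1.07 ± 0.20, close to the stretch's median.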
